A study of Saccharomyces cerevisiae with 4 samples.

Results

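The 10 genes described here encode the enzymes by which yeast reduces sulfate to sulfide and builds it into methionine and cysteine. They were listed by ORF name for their place in the pathway, and all 10 were found among the 6348 ORFs that had a count in any library. Of these, 9 had enough reads to be tested, among 5680 ORFs tested in all. STR3 was the exception. The groups were MATaaaa tetraploid cells and isogenic MATa haploid cells, both wild type and both of the filamentous strain background Σ1278b, with the alleles ura3-52, leu2::hisG and his3::hisG in each. The cells were grown at 30 °C in synthetic complete medium with 2% glucose and collected in mid-log phase. The tetraploid was 1 strain and the haploid was 1 strain, so a difference between the groups is a difference between these strains. Poly(A) RNA of 2 cultures of each was sequenced, and the cultures form pairs A and B, each with 1 tetraploid and 1 haploid culture. The study asked which transcripts change their share of the transcriptome with ploidy.

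Sulfate enters the yeast cell through permeases, is activated with ATP, and is then reduced stepwise to sulfide. Sulfide is joined to an activated homoserine to give homocysteine, which is methylated to methionine, and the transsulfuration enzymes convert homocysteine and cysteine into each other. In budding yeast the transcription of most of these genes is known to depend on the activator Met4 with its DNA-binding partners Cbf1, Met31 and Met32, and to be kept low when methionine is plentiful. The values below are relative levels in bulk RNA, so a change in one transcript cannot be told apart from a change in the rest of the library.

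Counts on ORFs came to 4133193 and 4036830 in the tetraploid libraries (A and B), against 3735445 and 3612527 in the haploid libraries. ORFs annotated inside the ribosomal DNA repeats took 41.1% and 37.0% of these counts in the tetraploid libraries, against 43.7% and 43.2% in the haploid libraries. The 10 genes together had 5698 and 5639 counts in the tetraploid libraries, against 4643 and 4953 in the haploid libraries. As a share of the counts outside ribosomal DNA this was 0.234% and 0.222% in tetraploids, against 0.221% and 0.242% in haploids, and the ploidies overlapped. Levels are given as CPM, the counts scaled to a common library total, after adjustment by TMM factors, which set the libraries to a common level over most genes. The files give no transcript lengths, so levels of different genes are not compared with each other.

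None of the 9 tested genes passed the test for a change with ploidy. In a model with a term for the culture pair (the block), the quasi-likelihood test of edgeR called 0 of 9 at a Benjamini-Hochberg adjusted p under 0.05, against 7.87% of all ORFs tested, of which 5.35% were lower and 2.52% higher in tetraploids. At an unadjusted p under 0.05 the test gave 4 of 9 genes (MET3, MET2, MET6 and CYS3), all with the lower level in tetraploids, against 24.8% of all ORFs tested in either direction. Without the pair as a block 0 of 9 were called, against 0.387% of all ORFs (0.317% lower and 0.0704% higher in tetraploids), and 2 of 9 (MET3 and MET2) had an unadjusted p under 0.05, against 9.21% of all ORFs. For limma-voom the count was 0 of 9, and its share over all ORFs is not given. DESeq2 called 0 of the 4 genes (MET5, MET17, MET6 and CYS3) to which it gave an adjusted p, against 156 of 2156 ORFs. With its own filter on mean counts switched off, an alternative added after the data were seen, it called 0 of 9, against 141 of 5680. At an unadjusted p under 0.05 DESeq2 gave 1 of 9, against 449 of 5680. The log2 fold changes, tetraploid over haploid, lay between -0.66 and 0.12 with a median of -0.27, beside a median of 0.01 over all ORFs tested. For 7 of the 9 genes the 95% interval of the fold change lay wholly inside a 2-fold change in either direction. Over all ORFs tested this held for 4894 of 5680. MET3 and MET2 were the exceptions among the 9, and for them a fall of 2-fold lay inside the interval.

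**Figure D1:**
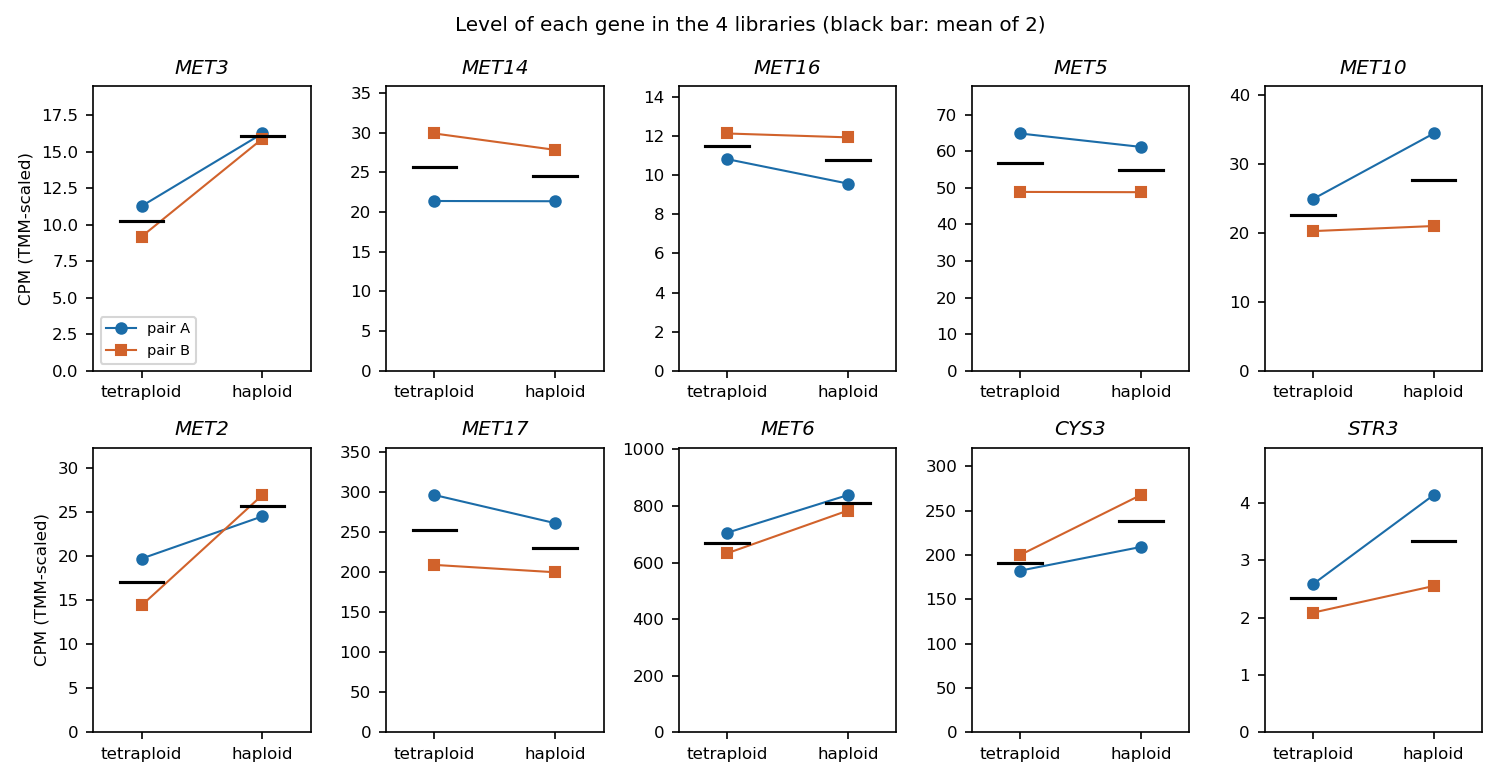
Level of each of the 10 genes in TMM-scaled CPM (linear axis), with tetraploid cultures to the left of haploid cultures and a different mark for pair A and pair B. For MET3, MET2, MET6 and CYS3 both tetraploid points lie below both haploid points, as with MET3 at 11.3 and 9.19 CPM in tetraploids, against 16.3 and 15.9 CPM in haploids.

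The first steps activate sulfate. MET3 (YJR010W, chromosome 10) encodes ATP sulfurylase, which makes adenosine phosphosulfate. It had 11.3 and 9.19 CPM in tetraploids A and B, against 16.3 and 15.9 CPM in haploids A and B. These values rest on 48 and 44 reads in tetraploids, against 51 and 56 reads in haploids. Both tetraploid cultures were below both haploid cultures, with means of 10.2 ± 1.47 CPM in tetraploids and 16.1 ± 0.253 CPM in haploids (SD, n = 2 each). The log2 fold change was -0.66 with a standard error of 0.23 and a 95% interval from -1.14 to -0.17, the lowest of the 9 genes and at percentile 4.12 of all ORFs tested. It did not pass the threshold (edgeR adjusted p = 0.0858, and 0.517 without the block). MET14 (YKL001C, chromosome 11) encodes the kinase that phosphorylates adenosine phosphosulfate. Its level was 21.4 and 29.9 CPM in tetraploids, against 21.4 and 27.8 CPM in haploids. The ploidies overlapped, and within each pair the cultures were nearly level, whereas both cultures of pair B were above both of pair A. The log2 fold change with ploidy was 0.06 ± 0.18 (SE), with an interval from -0.32 to 0.43 (edgeR adjusted p = 0.868).

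The next steps reduce the activated sulfate to sulfide. MET16 (YPR167C, chromosome 16) encodes the reductase that releases sulfite. It was measured at 10.8 and 12.1 CPM in tetraploids, against 9.56 and 11.9 CPM in haploids, from 30 to 58 reads. The ploidies overlapped. MET5 (YJR137C, chromosome 10) encodes the beta subunit of sulfite reductase, which makes sulfide. It had 64.9 and 48.9 CPM in tetraploids, against 61.2 and 48.8 CPM in haploids, so the cultures of each pair lay close together and the pairs lay apart. The log2 fold changes with ploidy were 0.09 for MET16 and 0.04 for MET5, with intervals from -0.42 to 0.61 and from -0.25 to 0.34 (edgeR adjusted p = 0.851 and 0.872).

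MET10 (YFR030W, chromosome 6) encodes the alpha subunit of the same sulfite reductase. It had 24.9 and 20.3 CPM in tetraploids, against 34.4 and 21.0 CPM in haploids. The haploid A culture was the high one, and the other 3 lay close together. The log2 fold change was -0.27 ± 0.18 (SE), with an interval from -0.66 to 0.12 (edgeR adjusted p = 0.380). The log2 ratio, tetraploid over haploid, was -0.47 in pair A, with a 95% interval from counting error alone of -0.87 to -0.07, and -0.05 in pair B, with an interval from -0.50 to 0.41. MET10 was the only one of the 10 genes on chromosome 6, whose 111 tested ORFs had a median log2 fold change of -0.40, with 29 called lower and 0 higher in tetraploids. The part of this shift in the value of MET10 was not tested.

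Summed over MET16, MET5 and MET10, the reduction genes came to 101 and 81.3 CPM in tetraploids, against 105 and 81.7 CPM in haploids. The sums of the cultures of 1 pair were thus close, at a log2 ratio of -0.06 for pair A and -0.01 for pair B.

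The following steps make homocysteine and methionine. MET2 (YNL277W, chromosome 14) encodes homoserine O-acetyltransferase, which supplies the carbon skeleton. Its level was 19.7 and 14.4 CPM in tetraploids, against 24.5 and 27.0 CPM in haploids. Both tetraploid cultures were below both haploid cultures, and the gap was wider in pair B. The log2 ratio was -0.31 for pair A and -0.90 for pair B, with counting intervals from -0.78 to 0.15 and from -1.37 to -0.44. The fitted log2 fold change was -0.61 ± 0.20 (SE), with an interval from -1.03 to -0.18. It had the smallest adjusted p of the 9 genes (edgeR adjusted p = 0.0732, and 0.529 without the block) and did not pass the threshold.

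MET6 (YER091C, chromosome 5) encodes the cobalamin-independent methionine synthase, which methylates homocysteine. It had 3001 and 3028 reads in tetraploids, against 2631 and 2761 reads in haploids. In scaled units this was 705 and 633 CPM in tetraploids, against 838 and 784 CPM in haploids. Both tetraploid cultures lay below both haploid cultures, with means of 669 ± 51.3 CPM in tetraploids and 811 ± 38.7 CPM in haploids (SD, n = 2 each). The log2 ratio was -0.25 for pair A and -0.31 for pair B, and both counting intervals lay below 0 (-0.33 to -0.17 and -0.38 to -0.23). The fit, which also carries a spread between cultures drawn largely from all genes, gave -0.28 ± 0.12 (SE) with an interval from -0.53 to -0.03 (edgeR adjusted p = 0.153). The raw reads were higher in tetraploids and the scaled levels lower. Scaled by total counts, which moved the median of all ORFs to 0.30, its log2 fold change was 0.0084.

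MET17 (YLR303W, chromosome 12) encodes O-acetylhomoserine sulfhydrylase, which joins sulfide to the carbon skeleton. It had 296 and 209 CPM in tetraploids, against 261 and 199.5 CPM in haploids. The ploidies overlapped, both cultures of pair A were above both of pair B, and within each pair the tetraploid was the higher. The log2 fold change with ploidy was 0.12 ± 0.12 (SE), with an interval from -0.13 to 0.38 (edgeR adjusted p = 0.562). Scaled by total counts, which moved the median of all ORFs to 0.30, it was 0.41 and was called higher in tetraploids (edgeR adjusted p = 0.0325). In the gene order of the S288C reference, MET17 overlaps YLR302C, and the study counted reads on both strands, so their reads cannot be told apart where they overlap. YLR302C had 68 and 57 reads in tetraploids, against 53 and 60 reads in haploids, beside 1259 and 999 reads of MET17 in tetraploids and 818 and 703 in haploids.

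The last group links homocysteine and cysteine. CYS3 (YAL012W, chromosome 1) encodes cystathionine gamma-lyase, which releases cysteine from cystathionine. It had 182 and 200.0 CPM in tetraploids, against 209 and 268 CPM in haploids. Both tetraploid cultures were below both haploid cultures, although tetraploid B and haploid A lay close together. The log2 ratio was -0.20 for pair A and -0.42 for pair B, with counting intervals from -0.35 to -0.05 and from -0.55 to -0.29. The fitted value was -0.31 ± 0.12 (SE), with an interval from -0.57 to -0.05 (edgeR adjusted p = 0.127). Scaled by total counts, the log2 fold change of CYS3 was -0.024, and scaled by counts outside ribosomal DNA it was -0.13. STR3 (YGL184C, chromosome 7) encodes cystathionine beta-lyase, which acts in the other direction and releases homocysteine. It had 11 and 10 reads in tetraploids, against 13 and 9 reads in haploids, fewer than the 15 reads in 1 library of each pair that testing required. Its log2 ratio was -0.68 for pair A and -0.29 for pair B, with counting intervals from -1.98 to 0.59 and from -1.74 to 1.19. Both intervals span 0, so the direction of any difference in STR3 was not settled at this depth.

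**Figure D2:**
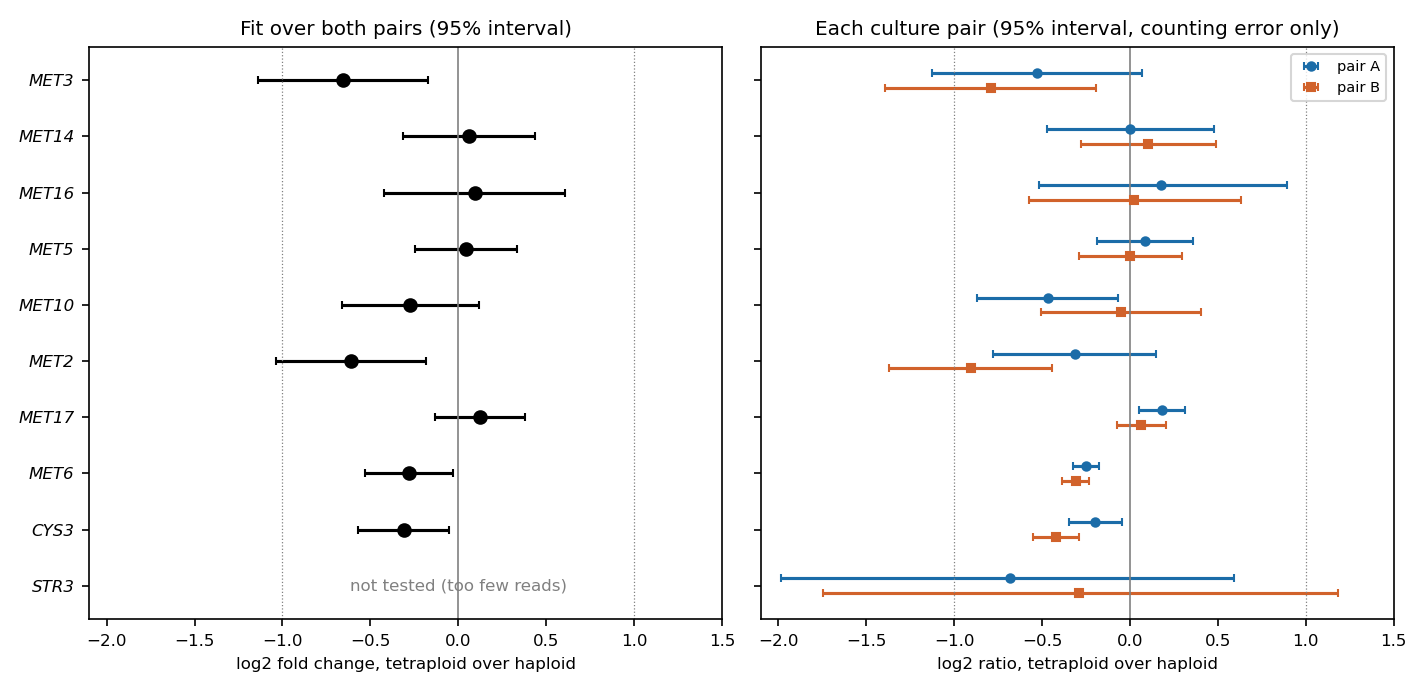
Log2 fold change, tetraploid over haploid, of each gene (x axis). The left panel gives the fit over both culture pairs with its 95% interval and the right panel gives each pair on its own with 95% intervals from counting error alone, with dotted lines at a 2-fold change. In the fit the intervals of MET3, MET2, MET6 and CYS3 lie below 0 and those of the other 5 tested genes span it.

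The tetraploid and haploid values did not overlap in 4 of the 9 tested genes, against 42.4% of all ORFs tested, so this count was near the background. The ratios of the pairs had the same sign in 9 of 9 genes, beside 3881 of 5680 ORFs. Of these 9, MET3, MET10, MET2, MET6 and CYS3 had the lower scaled level in tetraploids in both pairs, and MET14, MET16, MET5 and MET17 the higher. Several of the ratios were within counting error of 0, such as the 0.00 of MET14 in pair A and the 0.00 of MET5 in pair B. The signs move with the scaling, which shifts all ORFs alike. The median log2 fold change of all ORFs was 0.30 when scaled by total counts and 0.19 when scaled by counts outside ribosomal DNA, and the median of the 9 genes was 0.02 and -0.09 under these scalings. The number of the 9 genes with a value above 0 was 4 with TMM factors, 6 with total counts and 4 with counts outside ribosomal DNA. MET10 (0.02) and MET6 (0.0084) were the genes that changed sign with total counts.

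Summed over all 10 genes, the levels were 1339 and 1178 CPM in tetraploids, against 1480 and 1406 CPM in haploids. The log2 ratio of the sums was -0.14 for pair A and -0.25 for pair B. MET6 makes up the largest part of each sum, so these ratios mostly follow MET6.

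The culture pairs were compared next, since cultures of equal ploidy show how far these genes vary without a change of ploidy. What the letters A and B share beyond the pairing (a day, a batch of medium) is not stated. In a test of pair B over pair A with ploidy in the model, 1 of 9 genes was called, against 9.49% of all ORFs tested, of which 6.34% were lower and 3.15% higher in pair B. The called gene was MET17, which fell to 209 CPM in tetraploid B and 199.5 CPM in haploid B, against 296 CPM in tetraploid A and 261 CPM in haploid A. The log2 difference was -0.45 ± 0.12 (SE), with an interval from -0.70 to -0.19 (edgeR adjusted p = 0.0294). DESeq2 did not call it (adjusted p = 0.0831, and 0.153 with its own filter switched off), limma-voom did (adjusted p = 0.0197), and its edgeR adjusted p over the other filters, scalings and models ran from 0.0149 to 0.488.

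At an unadjusted p under 0.05 the pairs differed in 4 of 9 genes (MET14, MET5, MET10 and MET17), against 24.2% of all ORFs tested. The pair values did not overlap in 5 of 9 genes, against 40.9%. MET5 had 48.9 and 48.8 CPM in tetraploid B and haploid B, against 64.9 and 61.2 CPM in tetraploid A and haploid A, a log2 difference of -0.37 (edgeR adjusted p = 0.106). MET10 had a log2 difference of -0.50 (edgeR adjusted p = 0.107). MET14 differed in the other direction, with 29.9 and 27.8 CPM in tetraploid B and haploid B, against 21.4 and 21.4 CPM in tetraploid A and haploid A. Its log2 difference was 0.44 ± 0.18 (SE), with an interval from 0.06 to 0.81 (edgeR adjusted p = 0.137). The genes thus did not share 1 direction between the pairs: 6 of the 9 had a lower level in pair B and 3 (MET14, MET16 and CYS3) a higher one, with a median log2 difference of -0.15.

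The difference between pairs was larger in size than the difference between ploidies in 5 of the 9 genes, beside 2770 of 5680 ORFs. The median size of the log2 difference was 0.24 between pairs and 0.27 between ploidies, beside 0.22 and 0.22 over all ORFs tested. MET3, MET2, MET6 and CYS3 were the genes whose difference with ploidy was the larger.

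**Figure D3:**
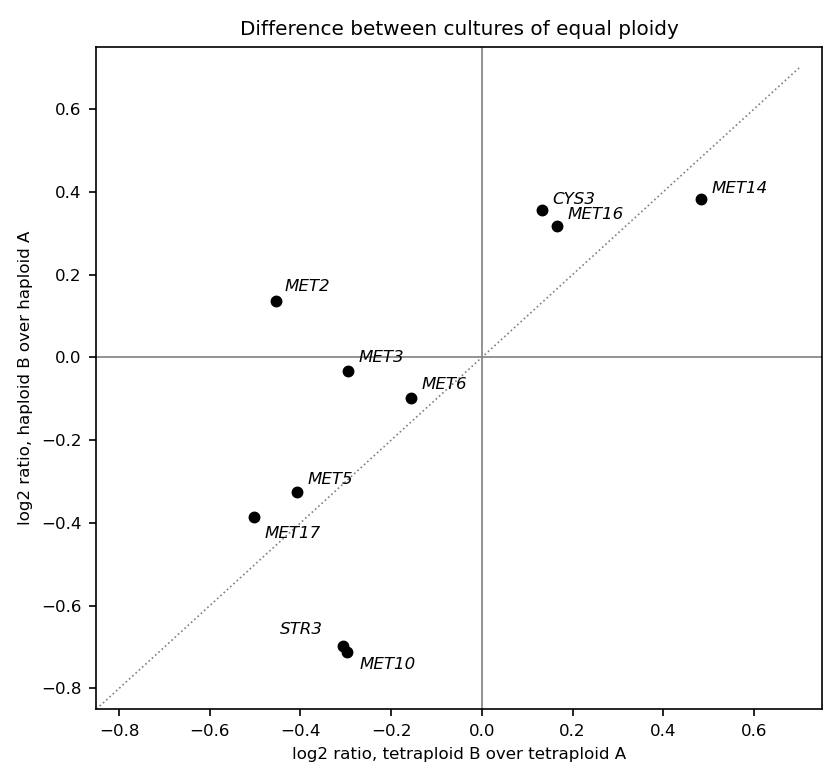
Log2 ratio of culture B over culture A for each gene, between the tetraploid cultures (x axis) and between the haploid cultures (y axis), with a dotted line where both ratios are equal. MET14, MET16 and CYS3 are higher in culture B at both ploidies, MET2 has opposite signs (-0.45 in tetraploids and 0.14 in haploids), and the other 6 genes are lower in culture B at both ploidies.

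The transcripts around these enzymes were described with a list of 35 further genes of sulfur and methionine metabolism, all of them tested. With ploidy 0 of 35 were called by edgeR, against 7.87% of all ORFs tested, and 7 of 35 had an unadjusted p under 0.05, against 24.8%. Their median log2 fold change was -0.02, beside 0.01 over all ORFs. Without the block 0 were called, against 0.387%, and 4 had an unadjusted p under 0.05, against 9.21%. DESeq2 called 0 of the 21 genes to which it gave an adjusted p, against 156 of 2156 ORFs. With its own filter switched off it called 0 of 35, against 141 of 5680. At an unadjusted p under 0.05 DESeq2 gave 1 of 35, against 449 of 5680. The count with limma-voom was 1 (STR2, higher in tetraploids), and its share over all ORFs is not given. For 30 of the 35 the 95% interval lay inside a 2-fold change, beside 4894 of 5680 ORFs. Between the pairs 3 of 35 genes fell and 1 rose in pair B, against 6.34% and 3.15% of all ORFs tested, so these counts were near the background.

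Sulfate uptake is carried by SUL1 and SUL2, the high-affinity sulfate permeases. SUL1 had 6.58 and 3.76 CPM in tetraploids, against 7.97 and 5.68 CPM in haploids. SUL2 had 64 and 86 reads in tetraploids, against 69 and 62 reads in haploids. The scaled levels of the ploidies overlapped for both permeases, with log2 fold changes of -0.41 and -0.25 (edgeR adjusted p = 0.463 and 0.496).

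Among the regulators, MET4, which encodes the activator, had 60.2 and 53.3 CPM in tetraploids, against 49.4 and 52.8 CPM in haploids. Its log2 fold change was 0.15, with an interval from -0.16 to 0.45 (edgeR adjusted p = 0.564). MET30, whose product is the ubiquitin ligase subunit that holds Met4 in check, had 45.8 and 52.2 CPM in tetraploids, against 53.2 and 58.2 CPM in haploids, and a log2 fold change of -0.18 (edgeR adjusted p = 0.438). Neither gene passed the threshold. MET28, which encodes a cofactor of Met4, had a log2 fold change of -0.02, and the ratio was 0.44 for pair A and -0.44 for pair B. CBF1, which encodes the DNA-binding partner that also binds centromeres, was at 0.30, with 0.94 for pair A and -0.22 for pair B. For MET28 and CBF1 the pairs thus had opposite signs (edgeR adjusted p = 0.973 and 0.537). GCN4, which encodes the general activator of amino acid synthesis genes, had 629 and 500.0 CPM in tetraploids, against 645 and 491 CPM in haploids, with an interval from -0.25 to 0.25 (edgeR adjusted p = 0.986).

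MET31 and MET32 encode related zinc-finger proteins that bring Met4 to DNA. MET32 had 25 and 40 reads in tetraploids, against 13 and 10 reads in haploids, or 5.87 and 8.36 CPM in tetraploids, against 4.14 and 2.84 CPM in haploids. Both tetraploid cultures were above both haploid cultures. The log2 fold change was 1.04 ± 0.37 (SE), with an interval from 0.25 to 1.83, the highest of the 35 genes (edgeR adjusted p = 0.0956, and 0.509 without the block), and it did not pass the threshold. The pairs differed in size: the log2 ratio was 0.50 for pair A, with a counting interval from -0.52 to 1.59, and 1.56 for pair B, with an interval from 0.53 to 2.72. With the block kept, leaving out 1 culture leaves 1 pair. The values then (0.49 or 0.50 without 1 culture of pair B, 1.55 without 1 of pair A) restate these ratios. Scaled by total counts, which moved the median of all ORFs to 0.30, MET32 was called (log2 fold change 1.33, edgeR adjusted p = 0.0364). MET31 had 7.99 and 9.82 CPM in tetraploids, against 9.88 and 12.5 CPM in haploids, a log2 fold change of -0.33 (edgeR adjusted p = 0.452).

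SAM1 and SAM2 encode the S-adenosylmethionine synthetases, which use the methionine made by this pathway. SAM1 had 572 and 646 CPM in tetraploids, against 762 and 749 CPM in haploids, a log2 fold change of -0.31 (edgeR adjusted p = 0.118). Scaled by total counts, the log2 fold change of SAM1 was -0.026. SAM2 had 721 and 686 CPM in tetraploids, against 796 and 593 CPM in haploids, a log2 fold change of 0.03 (edgeR adjusted p = 0.903). The tetraploid cultures lay below the haploid cultures for SAM1 and among them for SAM2. The genes are close paralogs, and unique mapping can leave out reads that both could have produced, so these values are uncertain. The size of any such loss was not measured. A further gene was singled out after its values were seen. STR2, which encodes cystathionine gamma-synthase, had 154 and 155 reads in tetraploids, against 75 and 79 reads in haploids. Its log2 fold change was 0.56, with an interval from 0.20 to 0.92, and the lowest adjusted p of the 35 genes (edgeR adjusted p = 0.0543, and 0.509 without the block).

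**Figure D4:**
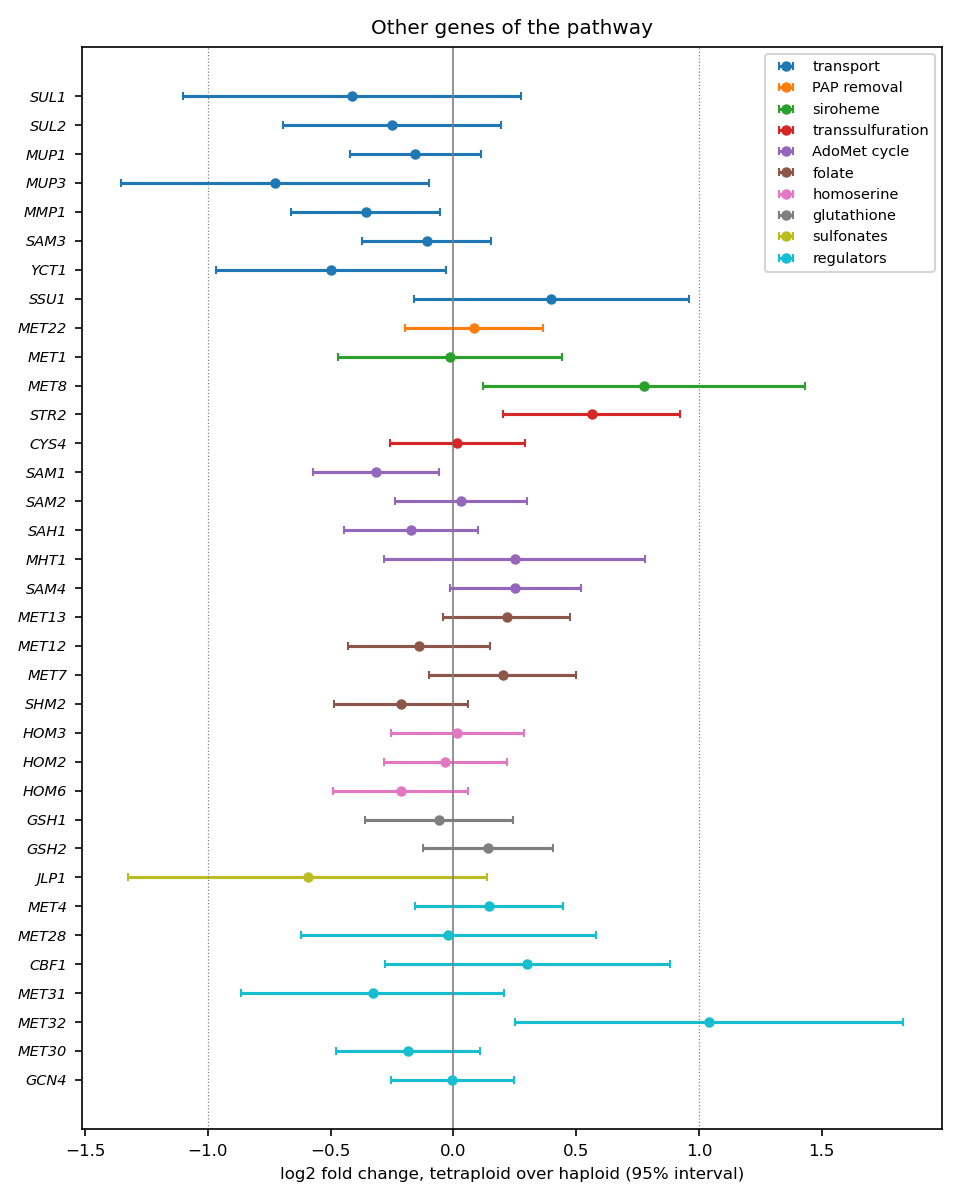
Log2 fold change, tetraploid over haploid, of the 35 further pathway genes (points) with 95% intervals from the fit (bars), coloured by role, with dotted lines at a 2-fold change. The values run from -0.73 for MUP3, a methionine permease gene, to 1.04 for MET32, and none passed an adjusted p of 0.05.

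Between the pairs the calls among these 35 genes were as follows. HOM6, which encodes homoserine dehydrogenase of the homoserine branch, had 218 and 220 CPM in tetraploid B and haploid B, against 300.5 and 399 CPM in tetraploid A and haploid A, a log2 difference of -0.66 (edgeR adjusted p = 0.00484). SAM3, an S-adenosylmethionine permease gene, had 92.6 and 103 CPM in tetraploid B and haploid B, against 139 and 146 CPM in tetraploid A and haploid A, a log2 difference of -0.55 (edgeR adjusted p = 0.0122). SAM3 has a close paralog, MMP1, so its reads are uncertain for the same reason as those of SAM1. MET13, which encodes a methylenetetrahydrofolate reductase that supplies the methyl group for methionine, fell by 0.40 on the log2 scale in pair B (edgeR adjusted p = 0.0478). SHM2, which encodes the cytosolic serine hydroxymethyltransferase of the folate cycle, rose in pair B by 0.47 on the log2 scale (edgeR adjusted p = 0.0308). In each of these genes the values of pair B and pair A did not overlap, against 40.9% of all ORFs tested. The calls came from the same values, so this adds no support to them.

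ACT1, the actin gene often used as a loading reference, fell in tetraploids within each pair. The paper normalized its quantitative PCR to ACT1 and took its share of total RNA as constant across strains, whereas poly(A) RNA was counted here. ACT1 had 708 and 502 CPM in tetraploids, against 1132 and 688 CPM in haploids, a log2 fold change of -0.57 (edgeR adjusted p = 0.00995). The ploidies overlapped, since tetraploid A was above haploid B. ACT1 also fell in pair B by 0.61 on the log2 scale (edgeR adjusted p = 0.00549). The call of ACT1 with ploidy was lost without the block (edgeR adjusted p = 0.577), without a filter on low counts (0.0683) and with total counts (0.0952). Its call between the pairs was lost with total counts (edgeR adjusted p = 0.0507) and with ploidy left out of the model (0.519). It lies on chromosome 6, as MET10 does.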

How the data were processed

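Per the labels and the paper's methods, the authors sequenced poly(A) RNA for 36 cycles on an Illumina Genome Analyzer 2, mapped reads to the Σ1278b genome with Bowtie 0.10.0, and deposited raw counts of reads per ORF, without normalization. The authors counted reads on both strands of an ORF and used unique mappings. Members and lists here were chosen with earlier results of these data known.

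The analysis ran in R 4.3.3 with edgeR 4.0.16. DESeq2 1.42.0 and limma 3.58.1 served as alternatives. ORFs with at least 15 reads in 1 library of each pair were tested. TMM factors were computed on the tested ORFs, with the totals over all listed ORFs as library sizes. Ploidy and culture pair were terms of 1 quasi-likelihood fit over the 4 libraries, as the study compares its cultures in pairs. Benjamini-Hochberg adjustment ran over all 5680 tested ORFs, and an adjusted p under 0.05 was a call. Cultures of the same letter deviated together from their group means (Pearson r = 0.53 across 5680 genes, which are not independent replicates). The biological coefficient of variation was 0.0858 with the replicate block and 0.182 without it. With 4 libraries and terms for pair and ploidy, each gene has few residual degrees of freedom. Standard errors and intervals of the fit thus rest largely on a spread shared across genes, not on that of each gene alone. The labels do not say that a letter marks a shared day or batch. Intervals of a single pair are conditional binomial ones and cover counting error only. The fits were tested on simulated data.

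The 10 names were matched to the S288C annotation, assembly R64, used for names and neighbouring genes only. Promoter motifs were not searched and no sequence was read, since a genome of the files' build was not used here. The genes named are the 10 enzymes, the regulators, SUL1, SUL2, SAM1 and SAM2, the further pathway genes that were called, and ACT1. STR2, MUP3 and SAM4 were named after their values were seen. MMP1 was named as the paralog of SAM3, and YLR302C for its overlap with MET17. The alternatives were the fit without the block, DESeq2, limma-voom, 2 other scalings, 2 other filters on low counts and leaving out each library. For the pairs, a fit with ploidy left out of the model took the place of the fit without the block.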

Additional observations from a re-analysis of the deposited data

How the results depend on the processing

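Among the enzymes tested, 0 were called lower in tetraploids under each alternative with a test, and 0 were called higher except with total counts (1, MET17). DESeq2 gave an adjusted p to 4 of the 9, and to all 9 with its own filter on mean counts switched off, which was added after seeing the data. MET2 came close to the threshold with at least 15 reads in all libraries (edgeR adjusted p = 0.0507) and with limma-voom (adjusted p = 0.0646). For MET3 these values were 0.0624 and 0.0789. The other alternatives gave higher values, up to 0.864 for MET2 and 0.936 for MET3 (DESeq2 with its own filter switched off). Without the replicate block 0 enzymes were called in either direction. Only 0.387% of all ORFs were called there, so this 0 says little about the block. The edgeR adjusted p moved from 0.0732 to 0.529 for MET2 and from 0.0858 to 0.517 for MET3. Without the block MET3 was at -0.65 and MET2 at -0.60. The block did change the call of ACT1. Leaving out 1 library without the block leaves 1 sample in an arm, assumed to vary like the other ploidy, and its counts of 0 say nothing about stability. Leaving out 1 library at a time with the block kept leaves 1 pair and no test, and the median log2 fold change of the enzymes then ran from -0.21 to -0.05.

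The 1 enzyme lower in pair B (MET17) was not called with DESeq2 (with or without its own filter), with counts outside ribosomal DNA, with total counts, with no filter or with ploidy left out of the model (0 each). With total counts 2 enzymes (CYS3 and MET14) were called higher in pair B. Of the 35 further genes, those called higher in tetraploids numbered 0 in the report, 1 with limma-voom, 1 with at least 15 reads in all libraries, 3 with counts outside ribosomal DNA (MET13, STR2 and SAM4) and 7 with total counts. Those lower in pair B numbered 3 in the report, 5 with at least 15 reads in all libraries, 1 with DESeq2 (HOM6, with or without its own filter), 1 with counts outside ribosomal DNA, and 0 with no filter, with ploidy left out or with total counts. The 1 gene higher in pair B (SHM2) was not called with DESeq2 (with or without its own filter), with no filter or with ploidy left out (0 each). Over all ORFs DESeq2 called 178 of 2927 between the pairs in either direction, and 151 of 5680 with its own filter switched off. For limma-voom, the other scalings, the other filters and the fit with ploidy left out, the share of all ORFs called is not given. The median log2 fold change of all ORFs with ploidy was 0.30 with total counts and 0.19 with counts outside ribosomal DNA. The cause of the moves in these counts was not tested.

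Scaling shifts all ORFs alike and turned the signs of some values, none of them called. With total counts, the difference with ploidy became 0.015 for MET10, 0.0084 for MET6, 0.28 for GCN4, 0.073 for HOM6, 0.27 for MET28, 0.10 for MET30, 0.18 for SAM3, 0.075 for SHM2 and 0.037 for SUL2. The difference between pairs became 0.061 for MET2, 0.053 for MET3, 0.082 for MET6, 0.15 for MET28, 0.16 for MET4 and 0.19 for SUL2. With counts outside ribosomal DNA, the difference with ploidy became 0.18 for GCN4, 0.16 for MET28 and 0.072 for SAM3, and the difference between pairs became 0.0076 for MET2, 0.00081 for MET3, 0.028 for MET6, 0.099 for MET28, 0.10 for MET4 and 0.13 for SUL2. GCN4 was at 0.0049 with no filter and at 0.0018 with at least 15 reads in all libraries.

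With 2 cultures per ploidy and as few as 30 to 58 reads for MET16, the precision of the genes with few reads is limited. The interval of MET16 ran from -0.42 to 0.61, and values inside it are compatible with these counts. The smallest detectable change was not computed. STR3 was tested only without a filter, at -0.49 with an interval from -1.31 to 0.33 (edgeR adjusted p = 0.534).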
